A study of Mus musculus with 7 samples.

Results

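The RNA of wild type F123 cells was set, gene by gene, beside the histone marks at the start of each protein-coding gene in the same cell line. F123 is a mouse embryonic stem cell (ESC) line from an F1 cross of castaneus (CAST) and 129 mice, and the cells went through 2 passages without feeders before harvest. Of 22380 protein-coding genes in the annotation, 21981 nuclear genes with at least 200 exonic bases of their own were described, and 399 were left out because they had fewer bases or lay on the mitochondrial genome. The main values came from 3 of the 7 libraries of the series, namely strand-specific polyA+ RNA-seq of wild type cells, H3K4me3 ChIP-seq and H3K27ac ChIP-seq of F123 cells. Beside them stood H3K27ac of J1, another mouse ESC line, and RNA-seq of 3 F123 clones in which the distal Sox2 enhancer was deleted from the 129 copy, the CAST copy or both, labelled 129 copy enhancer_KO, CAST copy enhancer_KO and both copy enhancer_KO and called here the 129 deletion, CAST deletion and biallelic deletion clones. Each condition was 1 library, and each deletion line was 1 clone, so no test between conditions was possible and no p-value is given.

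H3K4me3 is a methylation of histone H3 that is laid down around the starts of active genes and also at CpG-rich starts of many genes that are not transcribed. H3K27ac is an acetylation found at active promoters and enhancers. In ESCs many regulators of later development keep H3K4me3 at their promoters together with the Polycomb mark H3K27me3, which was not analysed here, and such genes are held at very low RNA levels. ESCs themselves are defined by a circuit of transcription factors that includes Oct4 (encoded by Pou5f1), Sox2, Nanog and Esrrb.

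RNA is given as FPKM, the distinct sense alignments scaled to exonic length and to the library's total on genes in the usual way, and a mark is given as fold, the number of 5′ ends of distinct alignments within 2 kb of the gene start over the number expected from the genome mean of that library. A gene was called expressed at 1 FPKM or more and silent under 0.1 FPKM. A start was called marked by a mark at 5-fold or more, and where no mark is named H3K4me3 is meant. Expressed but unmarked genes had both marks under 2-fold, while silent and unmarked genes had H3K4me3 under 2-fold whatever their H3K27ac, which was 5-fold or more at 19 of these 5381 genes. The wild type RNA library held 33684661 distinct alignments from 86875622 reads, and 24848422 of the alignments lay on genes. In the 129, CAST and biallelic deletion clones 12458881, 6058939 and 5831199 alignments lay on genes. The H3K4me3 library held 7108751 distinct alignments from 9007794 reads, and the H3K27ac library 1576875 from 8047321 reads. These alignments gave 11.1 and 2.47 expected ends per window, and no input library was used for the folds. A single alignment in a window was therefore worth 0.405-fold for H3K27ac, and folds of that mark near the thresholds are coarse. Intervals below are exact 95% Poisson intervals, which cover counting error only. The paper sequenced RNA fragments from both ends, and alignments were counted singly here without joining mates. RNA counts may thus not be independent, and their intervals may be too narrow.

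The promoters of 7 genes are shown here because the results turn on them. They are the 200 bases before the gene start on mm9, written 5′ to 3′ on the strand of the gene, with each CG dinucleotide in capitals. Hsp90ab1, which encodes a chaperone, had the highest RNA level of any gene with a single-copy sequence. Pou5f1 and Sox2 are markers of ESCs. 4933440N22Rik and Nr4a3 carried H3K4me3 at under 0.1 FPKM. Gm10925 had the highest FPKM of the table and was unmarked, in a window of mostly repeated sequence. Esrrb was unmarked at the gene start and marked at a second annotated start, and both are shown.
Hsp90ab1 (chr17:45710221-45710420, minus strand): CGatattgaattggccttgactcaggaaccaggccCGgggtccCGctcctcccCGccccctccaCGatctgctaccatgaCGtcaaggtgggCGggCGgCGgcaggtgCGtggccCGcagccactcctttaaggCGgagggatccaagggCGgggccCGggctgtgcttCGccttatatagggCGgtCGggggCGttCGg
Pou5f1 (chr17:35642782-35642981, plus strand): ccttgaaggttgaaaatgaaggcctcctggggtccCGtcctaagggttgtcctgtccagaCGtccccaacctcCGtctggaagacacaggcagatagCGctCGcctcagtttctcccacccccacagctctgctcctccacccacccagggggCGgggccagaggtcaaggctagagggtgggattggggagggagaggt
Sox2 (chr3:34548727-34548926, plus strand): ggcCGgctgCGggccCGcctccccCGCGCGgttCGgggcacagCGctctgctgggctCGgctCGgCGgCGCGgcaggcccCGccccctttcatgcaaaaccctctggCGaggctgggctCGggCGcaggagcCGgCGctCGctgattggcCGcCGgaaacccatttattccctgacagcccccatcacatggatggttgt
4933440N22Rik (chr6:117857779-117857978, minus strand): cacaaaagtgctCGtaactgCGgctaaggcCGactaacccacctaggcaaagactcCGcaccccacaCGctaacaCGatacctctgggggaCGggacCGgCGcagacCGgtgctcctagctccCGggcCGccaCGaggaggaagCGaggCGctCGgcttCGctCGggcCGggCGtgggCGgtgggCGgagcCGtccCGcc
Nr4a3 (chr4:48057825-48058024, plus strand): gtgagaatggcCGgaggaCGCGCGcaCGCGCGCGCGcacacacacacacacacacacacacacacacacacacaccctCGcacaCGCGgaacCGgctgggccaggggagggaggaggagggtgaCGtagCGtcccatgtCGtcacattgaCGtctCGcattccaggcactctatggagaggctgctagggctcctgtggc
Gm10925 (chr1:24621628-24621827, minus strand): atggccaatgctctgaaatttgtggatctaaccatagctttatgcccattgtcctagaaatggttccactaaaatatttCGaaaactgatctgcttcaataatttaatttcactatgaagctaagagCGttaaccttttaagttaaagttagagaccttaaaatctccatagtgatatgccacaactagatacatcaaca
Esrrb at the gene start (chr12:87701867-87702066, plus strand): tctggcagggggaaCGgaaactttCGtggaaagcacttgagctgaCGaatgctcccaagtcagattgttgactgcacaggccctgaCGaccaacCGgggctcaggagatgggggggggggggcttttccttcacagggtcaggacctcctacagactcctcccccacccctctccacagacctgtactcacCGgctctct
Esrrb at the marked start (chr12:87810867-87811066, plus strand): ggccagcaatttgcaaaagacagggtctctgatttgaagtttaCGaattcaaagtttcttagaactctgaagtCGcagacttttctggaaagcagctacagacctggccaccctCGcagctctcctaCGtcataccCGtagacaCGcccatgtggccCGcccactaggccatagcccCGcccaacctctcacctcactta
The promoters of Sox2 and Hsp90ab1 held 22 and 19 CG dinucleotides, and that of Pou5f1 held 6. The silent but marked promoters of 4933440N22Rik and Nr4a3 held 24 and 18 such dinucleotides. The Gm10925 promoter held 2 and was 34.0% G and C. Over all 21981 genes the median in the same 200 bases was 7, over expressed and marked genes 15 (quartiles 10 and 20), over marked but silent genes 14 and over silent and unmarked genes 1.

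Wild type ESCs expressed 12039 of the 21981 genes (54.8%), with a median of 11.9 FPKM among them. There were 6656 genes at 10 FPKM or more and 388 at 100 FPKM or more. At the other end, 6558 genes (29.8%) were silent and 3384 lay between 0.1 and 1 FPKM. No sense alignment on exonic bases of their own was seen for 4748 genes, for which the limit set by a count of 0 (3 counts) had a median of 0.110 FPKM. By these intervals the upper bound of every silent gene lay under 1 FPKM, but 4420 genes were short enough that 3 counts exceeded 0.1 FPKM. The bounds would lie higher if mates of the same fragment were counted apart. H3K4me3 marked 10099 gene starts (45.9%) and H3K27ac marked 6047 (27.5%), while in J1 cells H3K27ac marked 4887 (22.2%). The J1 library held 7743500 distinct alignments, against 1576875 in the H3K27ac library of F123. Folds of J1 and F123, here and below, are thus not matched for depth, and a difference between the lines was not tested.

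Both marks stood at 5533 starts, H3K4me3 alone at 4566 and H3K27ac alone at 514. Genes with both marks had a median of 19.3 FPKM and 96.2% of them were expressed. Genes with H3K4me3 alone had a median of 6.48 FPKM with 81.1% expressed, and those with H3K27ac alone 4.40 FPKM with 77.6% expressed. Among the 11368 genes with neither mark at 5-fold, the median was 0.0625 FPKM and 23.0% were expressed. Seen from the RNA, 75% of expressed genes carried H3K4me3 and 47.5% carried H3K27ac.

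Genes with more RNA had more of both marks. The median H3K4me3 fold was 0.810 in silent genes, 2.16 between 0.1 and 1 FPKM, 5.31 between 1 and 5 FPKM, 9.36 between 5 and 20 FPKM, 12.2 between 20 and 50 FPKM, 13.5 between 50 and 100 FPKM and 16 above that. The H3K27ac median was 0.405 in silent genes, 2.03 between 1 and 5 FPKM, 4.46 between 5 and 20 FPKM and 17.0 at 100 FPKM or more. Above 5 FPKM the medians of H3K27ac were thus spread more widely than those of H3K4me3. Spearman's rho between FPKM and fold was 0.73 for H3K4me3 and 0.70 for H3K27ac over the 21981 genes, and 0.45 for each over expressed genes only. J1 cells gave a rho of 0.71 for H3K27ac against the RNA of F123. These correlations are across genes of the same libraries, which share base composition and mappability and are not independent replicates, so they are a description.

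**Figure D1:**
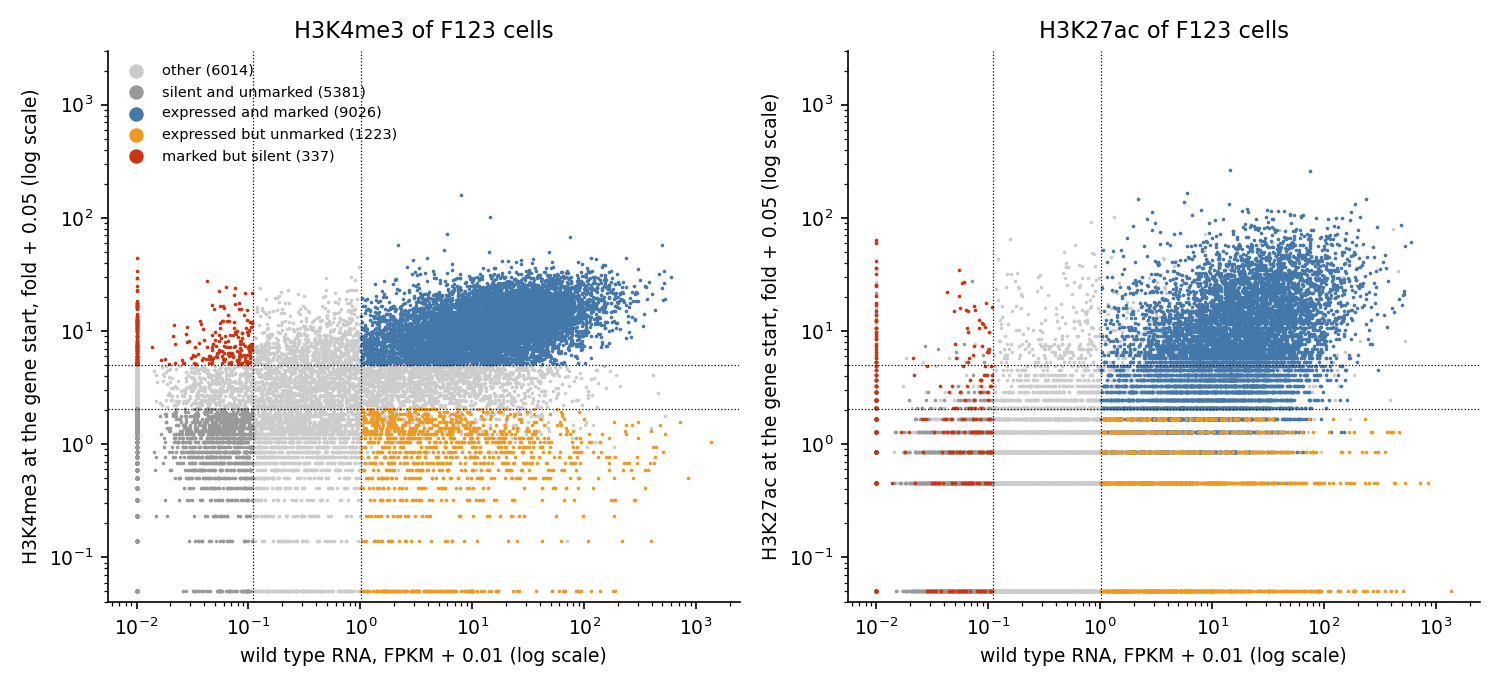
Each point is 1 of the 21981 genes, with wild type RNA (FPKM + 0.01, log scale) on the x axis and H3K4me3 (left) or H3K27ac (right) at the gene start (fold + 0.05, log scale) on the y axis. Colours give the same classes in both panels, set by H3K4me3 and RNA and, for expressed but unmarked genes, also by H3K27ac. Dotted lines give the thresholds. In the left panel the 337 marked but silent genes form the red group at the upper left. The 1223 expressed but unmarked genes form the orange group at the lower right.

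Both marks were highest just downstream of the start. Over genes with single-copy exons and no other gene start within 5 kb, the mean H3K4me3 profile in 250-base bins peaked at 2.85-fold in 3917 silent genes, 8.26-fold in 2142 genes between 0.1 and 1 FPKM, 25.2-fold in 3226 genes between 1 and 10 FPKM, 45.2-fold in 3494 genes between 10 and 100 FPKM and 63.2-fold in the genes at 100 FPKM or more. In the bin just before the start it was 10.3-fold, 14.1-fold and 13.9-fold in the last 3 of these groups, which differed less from each other. H3K27ac peaked at 0.908-fold in silent genes and at 73.1-fold in the highest group.

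**Figure D2:**
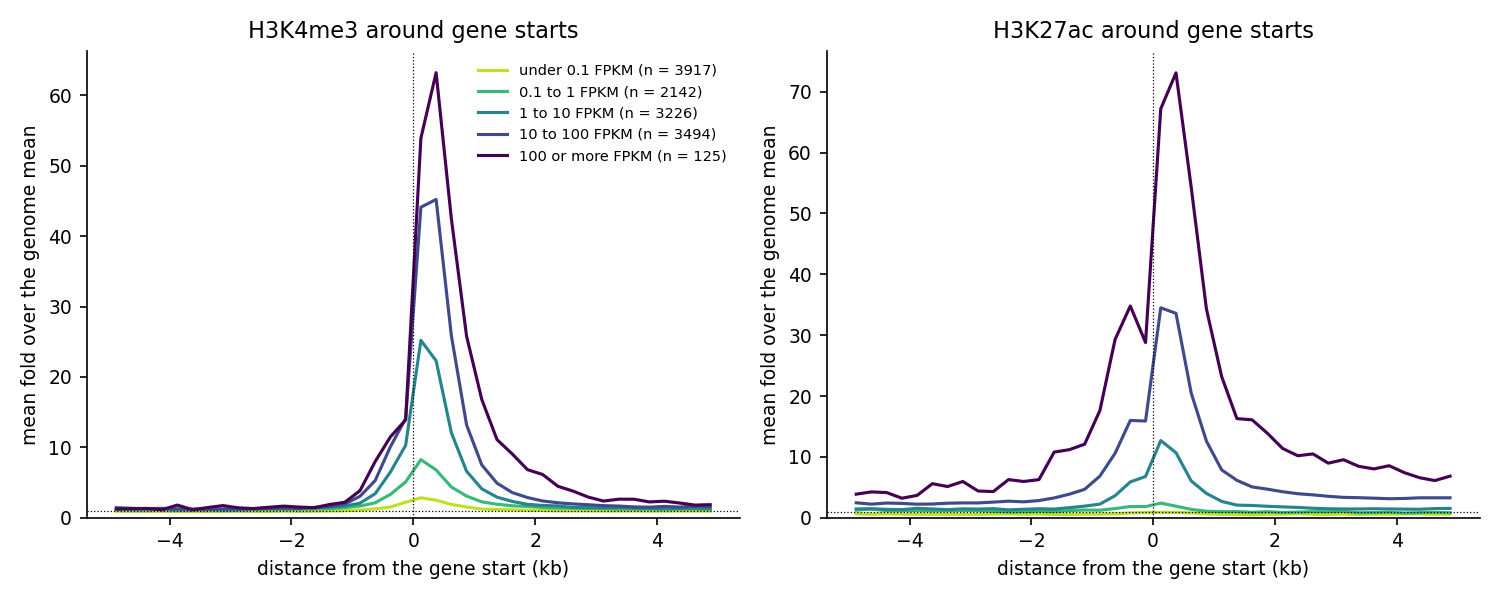
Lines give the mean fold of H3K4me3 (left) and H3K27ac (right) in 250-base bins within 5 kb of the gene start, for genes grouped by wild type FPKM. The H3K4me3 peak after the start grew from 2.85-fold in silent genes to 63.2-fold at 100 FPKM or more while H3K27ac peaked at 73.1-fold in that group.

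Of the 20 nuclear genes with the highest FPKM, 9 carried H3K4me3 and 9 were expressed but unmarked. Repeated exonic words were found in 18 of the 20, marked genes included, and the levels of those 18 are uncertain for that reason. Among the 9 marked genes Hsp90ab1 and Rpl8 were the single-copy ones. Most of the marked ones serve protein synthesis or folding. Hsp90ab1 had 44699 alignments and 599.8 FPKM (594 to 605), with 29.7-fold H3K4me3 and 61.2-fold H3K27ac. In the 129 deletion, CAST deletion and biallelic deletion clones it had 742, 792 and 744 FPKM. It was followed by Ftl1, the ferritin light chain, at 530.5 FPKM, and by the ribosomal protein genes Rpl32 at 521 FPKM, Rpl8 at 517 FPKM, Rplp1 at 507 FPKM, Rpl4 at 498 FPKM and Rps26 at 425 FPKM. Ptma, the prothymosin alpha gene, had 491 FPKM and Eef2, an elongation factor, 463 FPKM. H3K4me3 at the starts of these genes lay between 15.2-fold at Rps26 and 57.3-fold at Ptma. Dppa5a, an RNA-binding protein gene of pluripotent cells, had 461 FPKM with 34.1-fold H3K27ac but 2.79-fold H3K4me3. Eef1a1 had 526 FPKM with 1.71-fold H3K4me3 at its gene start and 33.8-fold at another annotated start 8.46 kb away.

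The 9 unmarked genes among these 20 all had repeated exonic words, as did most of the marked ones. Gm10925 had 26129 alignments and 1362 FPKM (1346 to 1379), 0.99-fold H3K4me3 and no H3K27ac alignment in its window. Of the words in that window 1.7% were single-copy, and in the window of Gm10222 15.2%, so the low folds there say little about the marks. None of its 36-base exonic words occurred at a single place in the genome, and 80.5% of them were also found in mt-Atp6, a gene of the mitochondrial genome with 1460.1 FPKM. Gm10222 had 717 FPKM and shared all of its words (100%) with mt-Nd4l, which had 724 FPKM. Gm10116 had 853 FPKM and shared 83.7% of its words with Ftl1, and Gm7536 had 438 FPKM and shared 100% with Rpl27a. The remaining 5 were Gm10736, Gm11808, Rplp2-ps1, Gm10076 and Gm8730, at 422 to 528 FPKM. Reads that lie within shared words cannot be assigned to either gene by sequence alone. How the aligner placed them was not tested.

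The ranking depended on the unit. The number of reads behind each alignment was read from a column that no header names, from its values. By reads before collapsing, Gm10925 still led with 3685 FPKM, Rpl32 had 2931 FPKM and Rps26 had 2557 FPKM, and 13 of the 20 genes stayed among the 20 highest. Only 3 of the 20 highest by reads were expressed but unmarked and 15 carried H3K4me3. Rpl38, a ribosomal protein gene, went from 130.5 FPKM by distinct alignments to 1381 FPKM by reads. A transcript offers a limited number of distinct positions, while reads also count duplicates from amplification, so neither unit is a count of molecules.

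Among genes with at least 80% single-copy exonic words, the 20 highest ranged from 599.8 FPKM at Hsp90ab1 to 189 FPKM at H2afx. H3K4me3 was at least 5-fold at 19 of these starts and H3K27ac at all 20. This list held the iron storage gene Fth1 at 365 FPKM, 3 nuclear subunits of cytochrome oxidase (Cox4i1 at 314 FPKM, Cox5a at 234 FPKM and Cox6a1 at 190.3 FPKM), the actin-binding Pfn1 at 299.8 FPKM, the tubulin gene Tubb5 at 292 FPKM and the metallothionein Mt2 at 260.4 FPKM. It also held Utf1, a chromatin factor of ESCs, at 211 FPKM. The exception for H3K4me3 was Spp1, which encodes the secreted protein osteopontin, at 191 FPKM with 4.05-fold H3K4me3 and 25.5-fold H3K27ac. All 20 had at least 1 FPKM in every deletion clone, but levels were not alike: Apoe, the apolipoprotein E gene, had 282 FPKM in wild type and 121, 145 and 149 FPKM in the 129, CAST and biallelic deletion clones.

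**Figure D3:**
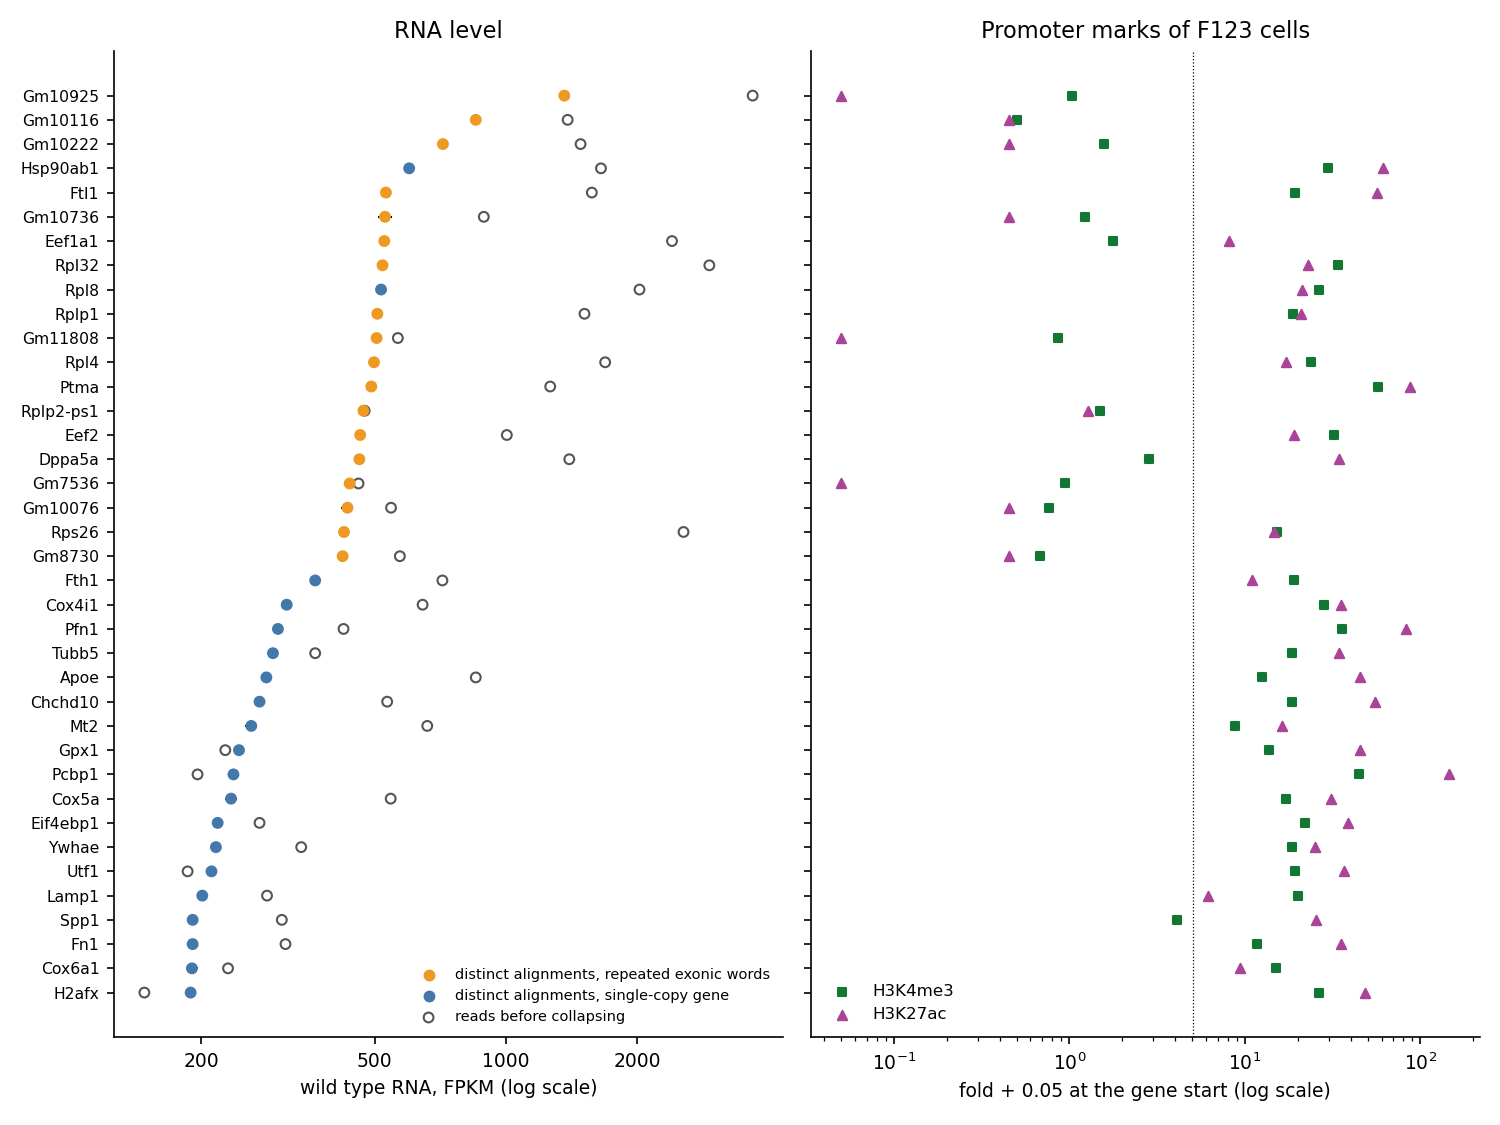
Left, wild type FPKM (log scale) of the 20 most abundant nuclear genes and the 20 most abundant single-copy genes, as distinct alignments with 95% Poisson intervals (filled, orange where exonic words are repeated in the genome) and as reads before collapsing (open). Right, H3K4me3 (squares) and H3K27ac (triangles) at the gene start as fold + 0.05 (log scale), where 9 of the 20 most abundant genes lie right of the 5-fold line for H3K4me3, genes with repeated words such as Ftl1 at 19.3-fold among them, and the single-copy genes from Fth1 downward lie right of it except Spp1.

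Of the 188 genes with single-copy words at 100 FPKM or more, 176 carried H3K4me3. By distinct alignments, RNA was spread over many genes. The 20 genes of highest FPKM took 1.12% of all alignments on genes. They are not the 20 with the most alignments, since FPKM is scaled to length. Fn1, outside these 20, had 39549 alignments, and Gm10736, among them, had 2622. On protein-coding genes 50% of the alignments were reached with 1679 genes. Counting distinct positions limits the share of abundant genes. By reads before collapsing, the 20 genes of highest FPKM in that unit took 3.43% of reads. The mitochondrially encoded genes took 1.29% of alignments and 3.71% of reads. The highest of them was mt-Co1, a subunit of cytochrome oxidase, with 1798 FPKM (1785 to 1812), and the lowest was mt-Nd3 with 127 FPKM. All 76 ribosomal protein genes were expressed, with a median of 126 FPKM, and 75 of 76 were marked by H3K4me3, beside 75% of expressed genes. The exception was Rpl13a at 4.41-fold. Of these 76 genes 52 had repeated exonic words, so their levels are uncertain where reads could be split with retrocopies.

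The label of the cells was checked against markers. All 20 ESC transcription factors in the table were expressed, with a median of 63.5 FPKM, 15 of 20 marked by H3K4me3 and 17 of 20 by H3K27ac. Of all genes 54.8% were expressed, and of expressed genes 75% carried H3K4me3, the same share as here, and 47.5% carried H3K27ac. Pou5f1 had 10559 alignments and 188 FPKM (185 to 192), with 20.6-fold H3K4me3 and 134-fold H3K27ac. In J1 cells its H3K27ac was 53.9-fold. Sox2 had 10667 alignments and 175 FPKM (171 to 178), with 33.9-fold H3K4me3, 113-fold H3K27ac and 45.0-fold H3K27ac in J1. Its RNA was 82.0, 73.1 and 7.40 FPKM in the 129, CAST and biallelic deletion clones. Utf1, Klf5, Zfp42, Nanog and Klf4 stood between 120.5 and 211 FPKM in wild type with 12.2-fold to 30.2-fold H3K4me3. The levels of Zfp42 and Nanog are uncertain, since 57.3% and 69.8% of their exonic words were single-copy. The lowest of the list was Prdm14, a regulator of the germ line and of naive pluripotency, at 13.2 FPKM.

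Esrrb and Nr5a2 were among the 3 factors with under 2-fold H3K4me3 at the gene start. Esrrb, an orphan nuclear receptor of the ESC circuit, had 89.9 FPKM (88.4 to 91.5) with 0.45-fold H3K4me3 and no H3K27ac alignment at the gene start. At the annotated start 109 kb downstream, whose promoter is printed above, H3K4me3 was 17.7-fold and H3K27ac 53.9-fold. Nr5a2, another nuclear receptor, had 19.8 FPKM with 1.62-fold at the gene start and 7.92-fold at a start 6.80 kb away. In both the marked start was not the outermost annotated one.

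Signals and surface proteins of ESCs were expressed in 15 of 16 cases, beside 54.8% of all genes. H3K4me3 marked 11 of 16, beside 75% of expressed genes and 45.9% of all genes. H3K27ac marked 10 of 16, beside 47.5% of expressed genes and 27.5% of all genes. Of the 16 genes 3 had repeated exonic words, Tdgf1 among them, and their levels are uncertain. Tdgf1, a co-receptor of Nodal signalling, had 209 FPKM, E-cadherin (Cdh1) 109 FPKM and Fgf4 53.8 FPKM. Fgfr2 had 6.56 FPKM, or 10.3 FPKM with exonic bases shared with other genes included, beside 34.6-fold H3K4me3 and 106-fold H3K27ac. The start of another gene lay 1004 bases from its outermost annotated start, so the marks cannot be assigned to either. Il6st, the shared receptor chain through which LIF signals, had 24.2 FPKM and 1.17-fold H3K4me3.

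Genes linked to germ cells were mostly expressed under 5-fold H3K4me3. Of 18 Dppa and germ cell linked genes 17 were expressed, but only 4 were marked by H3K4me3 and 6 by H3K27ac, beside 75% and 47.5% of expressed genes and 45.9% and 27.5% of all genes. Strong H3K27ac stood at Gdf3 at 62.9-fold, Dppa5a at 34.1-fold, Dppa2 at 26.8-fold and Dppa4 at 23.1-fold. Dazl, an RNA-binding protein of germ cells, had 73.4 FPKM with 7.29-fold H3K4me3 and 3.65-fold H3K27ac. The meiotic genes Sycp3 and Sycp1 had 19.2 and 15.8 FPKM with 3.33-fold and 2.70-fold H3K4me3, and Ddx4, the Vasa helicase, 13.9 FPKM with 2.25-fold. Mael, which acts against transposons in the germ line, had 17.8 FPKM with 1.89-fold H3K4me3 and 0.405-fold H3K27ac, so it was expressed but unmarked. Its promoter held 24 CG dinucleotides in the 300 bases around the start, against a median of 12 over all genes. Of the 18 genes 7 had repeated exonic words, Dppa2, Dppa4, Dppa5a, Zscan4c and Zscan4d among them, and their values are uncertain for that reason.

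Genes of chromatin regulation and glycolysis were expressed, beside 54.8% of all genes, and the shares marked are read beside the 75% of expressed genes that carried H3K4me3. All 13 Polycomb genes (PRC2 and PRC1) were expressed and carried H3K4me3, from 4.8 FPKM at Ring1 to 87.7 FPKM at Suz12, a core subunit of PRC2. All 8 genes of DNA methylation were expressed and 6 of 8 were marked, which is that same share. Tet1, a dioxygenase of 5-methylcytosine, had 109 FPKM with 58.8-fold H3K27ac but 2.88-fold H3K4me3, in a window with 74.7% single-copy words. Of 13 glycolytic genes all were expressed, from 1.14 FPKM at the lactate exporter Slc16a3 to 258 FPKM at the pyruvate kinase gene Pkm2, and 11 of 13 were marked, a share near it. Of the 13 genes 7 had repeated exonic words, Pkm2 among them, and their levels are uncertain.

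**Figure D4:**
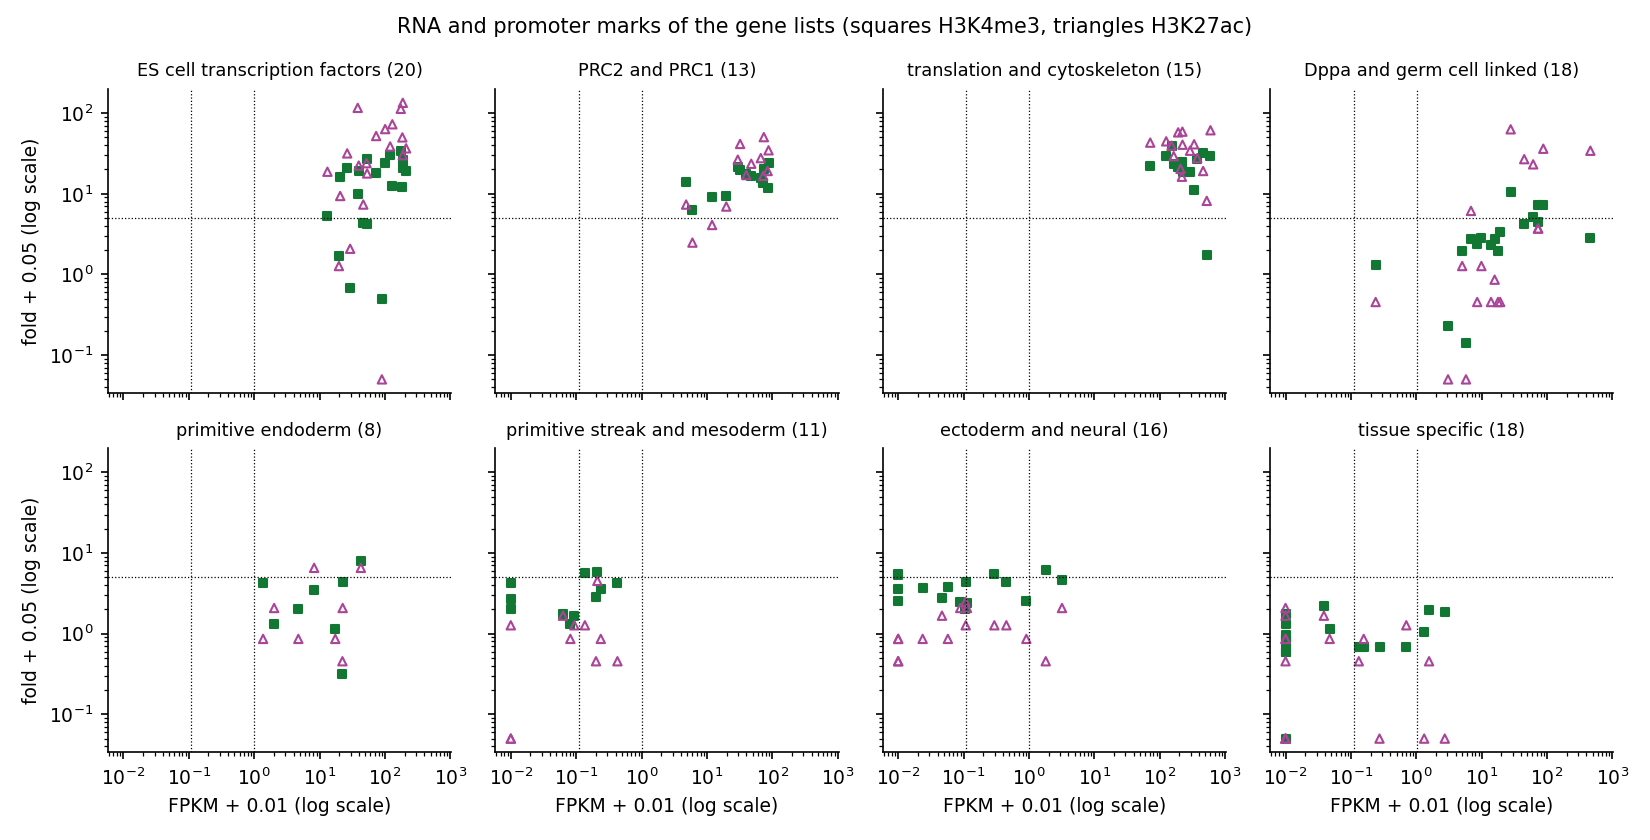
Each panel shows 1 gene list, with wild type RNA (FPKM + 0.01, log scale) on the x axis and H3K4me3 (squares) and H3K27ac (triangles) at the gene start (fold + 0.05, log scale) on the y axis, and dotted lines at 0.1 and 1 FPKM and at 5-fold. ESC factors, Polycomb genes and translation genes lie mostly at the upper right, 14 of the 18 germ cell linked genes lie under 5-fold H3K4me3, and mesoderm and neural genes reach no more than 5.76-fold and 6.03-fold with RNA mostly under 1 FPKM.

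Markers of other cell types were read beside the 54.8% of all genes that were expressed. Every one of the 8 primitive endoderm genes had at least 1 FPKM, with Gata6 at 42.9 FPKM, Pdgfra at 22.6, Dab2 at 22.4 and Gata4 at 17.4 FPKM, and 1 of 8 was marked by H3K4me3 (Gata6 at 7.83-fold). Their summed level was 122 FPKM. In the 129, CAST and biallelic deletion clones Gata6 had 2.94, 6.77 and 4.51 FPKM, whereas Dab2 had 13.5, 23.3 and 10.9 FPKM, and Foxa2, at 1.36 FPKM in wild type, had 0.643, 9.05 and 11.4 FPKM. Of 13 fibroblast genes 9 had at least 1 FPKM, led by Fn1 at 191 FPKM and then Thy1 at 11.4 FPKM, and so had 4 of 9 trophectoderm genes. For lists this short neither count stands far from the share of all genes. Acta2, Col1a1 and Fbn1 had 3.57, 3.48 and 2.45 FPKM, and the 3 silent members Lum, Dcn and Postn had 0, 0.0623 and 0.0616 FPKM. The fibroblast genes summed to 221 FPKM. The trophectoderm genes summed to 49.7 FPKM, of which Tead4 had 28.3 FPKM, and Cdx2 had 0.0712 FPKM. Of 18 tissue-specific genes, from blood, liver, muscle and other organs, 3 exceeded 1 FPKM, none above Cd3e at 2.72 FPKM, and none was marked. These 18 summed to 6.88 FPKM. In a bulk library fewer cells of a type and less RNA per cell cannot be told apart, and the part of other cell types in the class of expressed but unmarked genes was not tested.

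Genes marked by H3K4me3 but silent numbered 337, or 1.53% of the 21981 genes and 5.14% of the 6558 silent ones. Their median was 7.20-fold H3K4me3 and 1.62-fold H3K27ac. H3K27ac did not enter the rule, but its rank correlation with H3K4me3 across genes was 0.81. A share above that of all silent genes was therefore favoured by the choice. Expressed and marked genes had a higher median H3K4me3, at 11.3-fold, and were not matched for it. H3K27ac was at least 5-fold at 72 of the 337 genes (21.4%), against 59.0% of the 9026 expressed and marked genes and 1.65% of all silent genes. In J1 cells the shares were 17.5%, 46.5% and 1.57%. These genes were CpG-rich: 67.7% had a 300-base promoter with at least 50% G and C and an observed to expected CpG ratio of 0.6 or more, against 78.7% of expressed and marked genes, 1.52% of silent and unmarked genes and 42.5% of all genes. TATAAA, on either strand, stood in 6.23% of these promoters, 5.71% of expressed and marked ones, 26.7% of silent and unmarked ones and 13.3% of all promoters of that length. CCAAT on either strand stood in 25.5% against 38.7% of expressed and marked and 38.0% of all, and GGGCGG on either strand, which itself contains a CG, in 60.8% against 69.5% of expressed and marked and 43.9% of all. A match of these letters is a description of the sequence and not a binding site.

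Most of them lay beside another start. For 198 of 337 (58.8%) the start of another gene lay within 5 kb, against 28.1% of all genes, 38.8% of expressed and marked genes and 16.8% of silent genes. For 136 of these 198 a gene so placed was itself expressed, on the other strand in 119 cases. The share of all genes with such a neighbour was not worked out, so both counts are not read as particular to this class. Trpm8, the cold-sensing ion channel, had 0 alignments (upper bound 0.0314 FPKM) with 33.9-fold H3K4me3, and its start lay 28 bases from another start, with Hjurp at 32.4 FPKM on the other strand. Ttc39d had 2 alignments and 27.5-fold H3K4me3 near Srsf7, a splicing factor gene at 90.2 FPKM. H3K27ac was at least 5-fold at 61 of the 198 genes with such a neighbour and at 11 of the 139 without. A window of 4 kb cannot assign a mark to either start of a pair.

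The 139 genes with no other gene start within 5 kb had a median of 6.12-fold H3K4me3 and 0.811-fold H3K27ac, and 107 of them were under 2-fold for H3K27ac. For 8 of the 139 a transcript of another protein-coding gene nevertheless started within 5 kb. The highest of all was 4933440N22Rik, whose promoter is printed above, with 0 sense alignments on 651 exonic bases (upper bound 0.228 FPKM), 194 antisense alignments, 44.2-fold H3K4me3 and 63.7-fold H3K27ac. An annotated start of Hnrnpf, an RNA-binding protein gene with 209 FPKM, lies 44 bases away on the other strand. The mark there belongs to both windows. Vps25, of the ESCRT machinery, had 0 alignments on the 539 bases that are its own but 38.5 FPKM over all its exonic bases, so it was not silent by that measure. In all, 317 of the 337 genes and 137 of the 139 stayed under 0.1 FPKM over all exonic bases.

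Nr4a3, whose promoter is printed above, encodes a nuclear receptor that is induced early in response to signals. It had 4 alignments and 0.0269 FPKM (0.00733 to 0.0688) in wild type, with 12.2-fold H3K4me3 and 3.24-fold H3K27ac, and 0.241, 0.248 and 0.115 FPKM in the 129, CAST and biallelic deletion clones. Its nearest protein-coding transcript start of another gene lay 79762 bases away. Cadm2, a synaptic adhesion molecule, had 16 alignments and 0.0656 FPKM with 9.72-fold H3K4me3. Clstn2, a calsyntenin, had 10 alignments and 0.0707 FPKM with 8.73-fold, and Gja3, a connexin of the lens, 2 alignments with 8.91-fold. Ctnna3, an alpha-catenin of the heart, had 2 alignments and 8.91-fold H3K4me3, here with 5.68-fold H3K27ac. Slc2a13 and Ttll11 had 0.0625 and 0.04 FPKM with 9.09-fold and 9.81-fold. The Magi2 entry of the class, with 10.5-fold H3K4me3 and no alignment, was 1 of 3 annotated genes of that symbol, and the longest of them had 0.491 FPKM and 9.27-fold. H3K27ac was 12.6-fold at that Magi2 entry and 5.68-fold at Ctnna3, and at the other genes of this paragraph it lay between 0.405-fold at Gja3 and Ttll11 and 3.24-fold at Nr4a3.

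Of the 139 genes 23 had only a clone or predicted-gene name. At the threshold, AW011738 was the silent gene of lowest H3K4me3 inside the class at 5.04-fold and 3110082J24Rik the highest outside at 4.95-fold. In RNA, 3110021A11Rik was the highest inside at 0.0980 FPKM and Wdr65 the lowest outside at 0.1 FPKM.

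Silent developmental transcription factors stood mostly between 2 and 5-fold. The list of developmental factors, with the Hox, Pax, Gata, Tbx, Nkx, Lhx, Dlx, Irx and Fox genes among them, numbered 150, and 64 of them were silent. Of these 64, 9 were at 5-fold or more (14.1%, beside 5.14% of all silent genes), 34 were between 2 and 5-fold and 21 were under 2-fold. Over all 6558 silent genes 840 were between 2 and 5-fold and 5381 under 2-fold. The median H3K4me3 of the 64 was 2.84-fold, against 0.810-fold for all silent genes, while the median H3K27ac was 0.811-fold against 0.405-fold. A CpG-rich promoter was held by 35.9% of them and by 9.30% of all silent genes. The groups were chosen with results of these data known, and no test was made of them.

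The 7 of these factors that were silent, marked and without another gene start within 5 kb were Foxp2 (7.56-fold H3K4me3), Lhx4 (7.38-fold), Foxd4 (6.03-fold), Pax2 and Dlx2 (5.94-fold each), Hoxd8 (5.76-fold) and Dlx1 (5.13-fold). H3K27ac at their starts was between 0 and 1.22-fold. Foxp2 acts in brain and lung development, Lhx4 in the pituitary and motor neurons, Pax2 in the kidney and the Dlx genes in the forebrain and face. Their RNA in wild type lay between 0 FPKM for Lhx4 and Dlx2 and 0.0624 FPKM for Pax2. Hoxd8 had 0.0293 FPKM in wild type and 0.176, 0.0601 and 1.0 FPKM in the 129, CAST and biallelic deletion clones, with 2 alignments behind the wild type value. The neural regulator Neurog2 had 0 alignments with 5.40-fold H3K4me3.

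The counts of the next lists stand beside 54.8% of all genes expressed, 29.8% silent and 45.9% marked by H3K4me3. Of the 39 Hox genes 5 were expressed, 16 lay between 0.1 and 1 FPKM and 18 were silent. H3K4me3 was at least 5-fold at 8, between 2 and 5-fold at 21 and under 2-fold at 10. The highest 2 were Hoxc13 at 11.4-fold with 2.68 FPKM and Hoxa5 at 11-fold with 0.343 FPKM. None of the 9 Pax genes was expressed, and Pax2 was the only one of them at 5-fold. Of 19 Wnt ligand genes 3 were expressed and 6 were marked. Of 11 genes of the primitive streak and mesoderm none was expressed, 2 were marked, 5 lay between 2 and 5-fold and 4 were under 2-fold, with a median of 2.79-fold H3K4me3. The 2 marked ones were Mesp1 with 0.126 FPKM and 5.58-fold and Tbx6 with 0.201 FPKM and 5.76-fold, and the highest RNA level was that of T (Brachyury) with 0.418 FPKM and 4.23-fold. The large sensory families were almost all silent with little H3K4me3. Of 1110 olfactory receptors 1083 were silent and none reached 5-fold H3K4me3, with a median of 0.540-fold, and of 319 vomeronasal receptors 311 were silent and none reached 5-fold H3K4me3. H3K27ac was at least 5-fold at 1 gene of each family, Olfr543 at 9.33-fold and Vmn1r90 at 8.11-fold.

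Few of the marked but silent genes had RNA in the other clones. At least 1 FPKM was reached by 8, 12 and 17 of the 337 in the 129, CAST and biallelic deletion clones (2.37%, 3.56% and 5.04%), and by 86, 150 and 252 of all 6558 silent genes (1.31%, 2.29% and 3.84%). Since all of these were chosen for a low wild type value, higher values elsewhere are favoured by the choice. The clone libraries were also smaller than that of wild type, so 1 FPKM rested on fewer alignments there. Both rows of counts rose as the libraries became smaller, and the part of depth was not tested. A rise of at least 3-fold on FPKM + 4 in the biallelic deletion clone was seen in 2 of the 337, or 0.593%, beside 24 of all 6558 silent genes (0.366%) and 1.13% of all genes.

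Expressed but unmarked genes numbered 1223, or 5.56% of the 21981 genes. Their median was 5.16 FPKM, and J1 cells had at least 5-fold H3K27ac at 5 of them (0.409%, beside 22.2% of all genes). The rule required under 2-fold H3K27ac in F123 cells, which had a rank correlation of 0.88 with J1 across genes, so a low count there was largely set by the rule. At the edges of the class, Neb had 1.01 FPKM inside it and Gm13119 0.999 FPKM outside, and Sox17 had 1.98-fold H3K4me3 inside and Khdrbs2 2.07-fold outside. The 1223 genes fell into 4 groups that were set up after the values were seen. In the largest, 594 genes (48.6%), under 80% of the exonic 36-base words occurred at a single place in the genome, as in 17.2% of all genes. Another 179 (14.6%) had single-copy exons and at least 5-fold H3K4me3 at another annotated start of the same gene. A further 163 (13.3%) had a 1-kb bin of at least 5-fold H3K4me3 within 10 kb of the gene start, and 287 (23.5%) had none of these. The shares of all genes with such a start or bin were not worked out, so these counts are not read as particular to the class. Whether a marked start or bin also served a neighbouring gene was not tested.

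The copied group held 59 genes at 100 FPKM or more, and the 20 most abundant expressed but unmarked genes all belonged to it. Of its 594 genes 274 had a single exon (46.1%, beside 12.5% of all genes). For 362 of the 594 genes a protein-coding gene held at least 50% of the words, and this gene was a ribosomal protein gene in 43 cases and marked by H3K4me3 in 120. Gm10119 had 397 FPKM and shared 82.8% of its words with Rps3a, and Rpl23a-ps3 had 410.3 FPKM and shared 91.7% with Rpl23a. Gm10123 shared 99.9% of its words with Ppia, the cyclophilin A gene, and had 399 FPKM from 7164 alignments, with 1.26-fold H3K4me3 and no H3K27ac alignment. Ppia itself had 71.8 FPKM with 22-fold H3K4me3 and 43.0-fold H3K27ac, and by reads the values were 409 FPKM for Gm10123 and 194 FPKM for Ppia. By distinct alignments the median was 9.65 FPKM for the 362 unmarked genes and 8.45 FPKM for their partners, and the partner had the higher FPKM in 165 of 362 pairs. By reads before collapsing the medians were 4.81 and 4.74 FPKM. The partner had the higher number of reads in 243 of 362 pairs. A number of reads is not scaled to exonic length as FPKM is, so the counts of 165 and 243 are not like measures. The partners had a median of 0.270-fold H3K4me3, so most of them were not marked either, and which member of a pair is the copy was not tested. These levels are uncertain, and how reads that fit several sites were placed was not tested. Mapping limits the marks too: the median share of single-copy words in the 4 kb around these starts was 54.4%, against 96.9% for all genes.

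Among the 179 genes with a marked alternative start, the marked start lay a median of 12.2 kb from the gene start, and more than 10 kb away in 107 cases. The range was 2.06 kb at Ddit4l to 1762 kb at Ptprd. H3K4me3 at the marked start had a median of 9.72-fold, and H3K27ac was at least 5-fold there in 90 of 179. At gene starts it was so in 59.0% of expressed and marked genes and 27.5% of all genes. Ctnnb1, which encodes beta-catenin, had 111 FPKM (109 to 113) with 1.17-fold H3K4me3 at the gene start and 17.6-fold at a start 4.6 kb away. In the 3 deletion clones it had 111, 122 and 127 FPKM. Txnrd1, the thioredoxin reductase, had 93.4 FPKM and 0.99-fold, then 11.8-fold at 26.4 kb, and Psat1, an enzyme of serine synthesis, had 62.1 FPKM and 1.44-fold, then 18.6-fold at 22.7 kb. Papola, a poly(A) polymerase, and Hif1a, the hypoxia factor, had 60.5 and 40.2 FPKM with 1.53-fold and 0.99-fold at the gene start, and 18.5-fold and 16.7-fold at starts 4.57 and 6.53 kb away. For this group the outermost annotated start and the marked start were different places. CpG-rich gene starts made up 4.47% of this group, 4.29% of the group with a marked bin nearby and 8.01% of the group with none of these features.

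**Figure D5:**
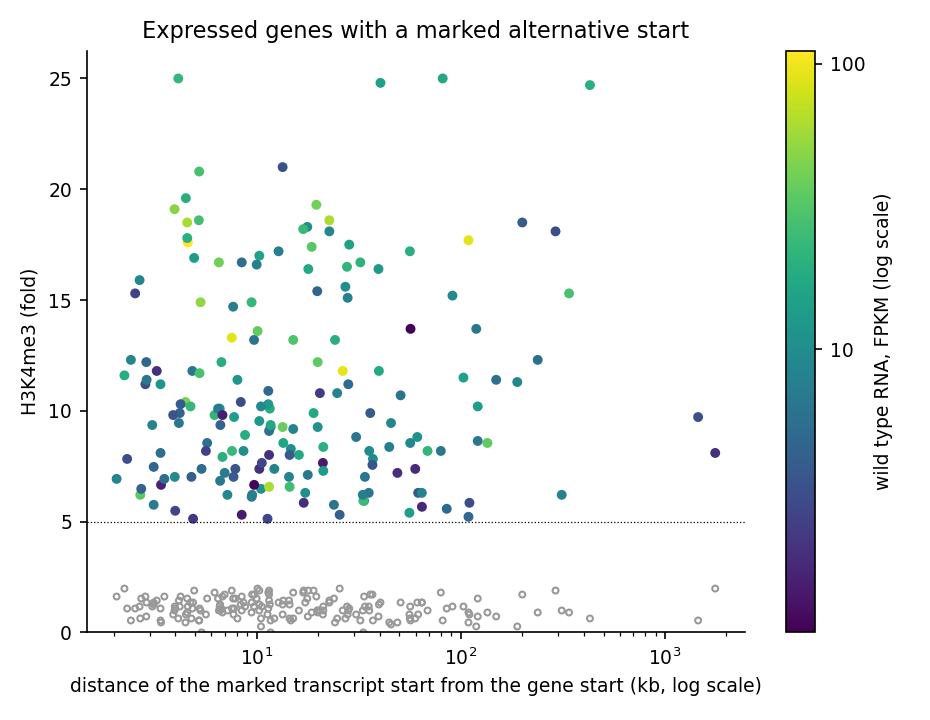
Each of the 179 expressed genes with an unmarked gene start and a marked alternative start is drawn as a filled point, the H3K4me3 fold at the marked start, and an open grey point, the fold at the gene start, over the distance between the 2 (kb, log scale). Colour gives wild type FPKM, the dotted line is 5-fold, and the distances run from 2.06 to 1762 kb with a median of 12.2 kb.

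The 163 genes with a marked bin nearby had a median of 2.67 FPKM. Rnf4, a ubiquitin ligase, was the highest with 99.4 FPKM and 1.62-fold H3K4me3, and its nearest marked bin was 8 kb away. Traf7 had 60.2 FPKM with such a bin at 8 kb, Nt5dc2 57.5 FPKM at 3 kb and Ccnk, a cyclin of transcription, 49.6 FPKM at 6 kb. Whether these bins are unannotated starts of the same genes was not tested.

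The 287 genes with none of these features had a median of 3.01 FPKM, and 45 of them reached 10 FPKM. Nid1, which encodes the basement membrane protein nidogen, was the highest with 10000 alignments and 66.6 FPKM (65.3 to 67.9) beside 0.27-fold H3K4me3, but 12.6% of the words in its window were single-copy, so few reads could be placed there. It had 17.0, 16.3 and 33.8 FPKM in the 129, CAST and biallelic deletion clones. Kri1, at 32.2 FPKM with 1.26-fold, had 32.0% single-copy words in its window, and the other genes named here had 89.3% to 99.7%. Ktn1, the kinectin gene, had 48.0 FPKM with 0.81-fold H3K4me3 and 97.6% single-copy words, and the nearest 1-kb bin of 5-fold lay 14 kb away. Frrs1 had 49.3 FPKM with 0.45-fold, Gatad2b, a subunit of the NuRD complex, 36.2 FPKM with 1.17-fold and Usp37, a deubiquitinase, 35.5 FPKM with 0.99-fold. For Gatad2b and Usp37 the nearest marked bin was 47 and 37 kb away. Cyp2b23, a cytochrome P450, had 27.3 FPKM with 1.08-fold and none within 92 kb. Of the 287 windows 19 had under 80% single-copy words. Within the 629 unmarked genes with single-copy exons, 474 or more kept at least 1 FPKM in each deletion clone (75.4% to 75.8%), and 96.6% to 97.6% of the expressed and marked genes did. The former had a median of 3.81 FPKM and the latter of 15 FPKM in wild type, so the shares are not matched for level.

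The X chromosome had lower folds at expressed genes. Of 428 expressed X-linked genes 34.6% carried H3K4me3, against 76.5% of expressed autosomal genes, and their median was 3.78-fold against 9.45-fold. For H3K27ac the medians were 2.03-fold and 4.87-fold. The whole chromosome held fewer alignments, with 1036 H3K4me3 alignments per Mb against 2895 on autosomes (a ratio of 0.358) and a ratio of 0.309 for H3K27ac. Fold was taken over the mean of autosomes and X together, with no correction for chromosome or its number of copies. The Y-linked gene Eif2s3y had 23.4 FPKM, and the number of X copies in these cells was not tested. The lower folds at X-linked starts thus stood beside fewer alignments over the whole chromosome, and a trait of X promoters was not tested. Expressed but unmarked genes made up 23.1% of expressed X-linked genes (99 genes) and 9.62% of autosomal ones. Cul4b, a ubiquitin ligase scaffold at 62.1 FPKM, was such a gene, with 1.89-fold at its gene start and 6.57-fold at its highest start.

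Some of the highest folds stood in windows of repeated sequence. Sfi1 had 159.9-fold H3K4me3 in a window with 90.7% single-copy words, and Gm10801 had 267-fold H3K27ac and 101-fold H3K4me3, with 7.94 and 14.4 FPKM. Of the 10 highest genes for H3K4me3, 6 were predicted genes (Gm10715, Gm10717, Gm10722, Gm10800, Gm10801 and Gm17535) in whose windows 9.30% to 49.2% of words were single-copy, and they were high in the J1 library too, at 42.5-fold to 78.5-fold. The remaining 3 beside Sfi1 were Ptma, Yy1 and Pcbp1, at 57.3-fold, 50.2-fold and 44.5-fold. Sense alignments at the 6 predicted genes gave 2.15 to 74.2 FPKM in wild type and more in all 3 deletion clones. The ranges were 43.5 to 1173, 62.8 to 2155 and 28.5 to 1064 FPKM in the 129, CAST and biallelic deletion clones. In wild type, antisense alignments were about as many as sense ones. There were 1576 against 1217 at Gm10800 and 50 against 36 at Gm10715, but 71 against 94 at Gm17535. These values can therefore not be assigned to transcripts of the genes. The 6 genes share exonic words with each other or with other predicted genes, so they are not independent.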

How the data were processed

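RNA-seq and ChIP-seq reads were mapped to mm9 by the authors, with Novoalign and USeq for RNA and Bowtie for ChIP. Versions are not given in the sources used here. The deposited files held counts, taken from their values as the number of reads behind each distinct alignment since no header names them, with position and strand. Distinct alignments were counted here on NCBIM37 (mm9) with GENCODE M1 genes, without replicates. FPKM came from sense alignments in exons, leaving out bases annotated to a further gene on the same strand, with the transcript strand opposite to the strand of the line. The 5′ ends within 2 kb of the gene start, over the mean density of autosomes and X, gave fold. For 36-base words of the exons and windows, the places in the genome were counted, and a gene was called single-copy where at least 80% of its exonic words occurred once. Intervals are exact Poisson intervals, and the floor was 3 counts. The counting was tested on simulated data. Counting ran in numba 0.67.0 with numpy 2.4.6 under python 3.11.15, intervals came from scipy 1.17.1, tables from pandas 2.3.3, and plots from matplotlib 3.10.9.

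The named genes were the 20 of highest FPKM, the 20 marked but silent genes of highest H3K4me3 with no other gene start within 5 kb, the 20 expressed but unmarked genes of highest FPKM, the members of the gene lists and the genes at the end of a range. Genes of high FPKM with single-copy words, genes of the groups of unmarked genes, marked but silent genes beside another start, Hnrnpf, and the promoters of Hsp90ab1, Nr4a3 and Esrrb were chosen after their values were seen. Members and lists were chosen with earlier results of these data known. Alternatives were other windows, thresholds, starts, units, strands and gene sets. Of the symbols, 143 were used by more than 1 gene, and such genes were kept apart by gene ID. Values of a few list members are not reported here.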

Additional observations from a re-analysis of the deposited data

How the results depend on the processing

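No paired analysis was possible because each condition was 1 library. Expressed genes numbered 11117 by reads before collapsing and 12415 on both strands, beside 12039 as reported. Marked but silent genes, 337 as reported, numbered 615 with a window of 1 kb on each side and 127 with 5 kb, 735 at a threshold of 3-fold and 96 at 10-fold, 220 when silent meant under 0.05 FPKM and 797 under 0.5 FPKM. Promoters marked by H3K4me3 and H3K27ac fell to 5723 and 4023 with 5 kb and to 5649 and 3612 at 10-fold. Without genes that had another gene start within 5 kb there were 7859 expressed genes, 6062 and 3456 marked promoters and 139 marked but silent genes, out of fewer genes. Expressed but unmarked genes, 1223 as reported, numbered 624 from 5 FPKM and 649 when unmarked meant under 1-fold. Rank correlations of 0.73 for H3K4me3 and 0.70 for H3K27ac were both 0.45 among genes of at least 1 FPKM. Of the 20 most abundant genes 13 remained by reads before collapsing. With single-copy genes only, an alternative chosen after seeing the data, 2 of the 20 remained, expressed but unmarked genes numbered 629 and the rank correlation for H3K4me3 was 0.75. Counting over all exonic bases, also chosen later, gave 317 marked but silent genes. None of the rank correlations changed sign. The cause of these shifts was not tested beyond what each setting leaves out. The H3K27ac library, with 2.47 expected ends per window, limits what can be said near 2-fold.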

Other observations

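Replication-dependent histone genes, whose transcripts mostly lack a polyA tail, had H3K27ac at most starts. Of 65 such genes 57 reached 1 FPKM, beside 54.8% of all genes. Their median was 2.79 FPKM, against 1.86 FPKM for all genes and 11.9 FPKM for expressed genes, with a highest value of 36.9 FPKM at Hist1h2af. H3K27ac was at least 5-fold at 52 of the 65 starts in F123 cells (beside 27.5% of all genes and 47.5% of expressed genes). In J1 cells it was so at 52 as well (beside 22.2% of all genes). H3K4me3 was at least 5-fold at 17 (beside 45.9% of all genes and 75% of expressed genes) and between 2 and 5-fold at 33. H3K27ac had a median of 9.33-fold and H3K4me3 a median of 3.33-fold at these starts. Of the 65 genes 53 had repeated exonic words, so the level of each is uncertain.

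Forkhead transcription factors act in many lineages. Of 43 Fox genes 19 were expressed and 26 were marked by H3K4me3, beside 54.8% and 45.9% of all genes. The marked ones were led by Foxo3 at 42.1-fold with 49.5-fold H3K27ac, and the highest RNA level was that of Foxh1, a partner of Smad proteins in Nodal signalling, at 35.3 FPKM. Sfrp1, a secreted antagonist of Wnt ligands, was the highest of 12 signals of development at 59.4 FPKM with 8.64-fold H3K4me3 and 15.8-fold H3K27ac, whereas 5 of the 12 were silent, beside 29.8% of all genes.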
